A study of Mus musculus with 6 samples.

Results

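The genes described here are 49 mouse genes that act in the copying of DNA and in cell division, 25 of replication, 3 regulators of the step from G1 into S phase and 21 of mitosis. The rule names the genes and reads each through its brightest probe. It uses no difference between groups, although it was proposed with results of these data known. All 49 were found among the 20263 genes with a named probe on the array, and 47 of them passed the filter on dim probes that left 13247 genes for testing. Ccne2, which encodes cyclin E2, and Aurkb, which encodes a kinase of the centromere, each have 1 probe, and neither probe was well above background on any of the 6 arrays.

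Total RNA came from Tot2, a myeloid progenitor line established from an Irf8 knockout mouse, so the control cells have the same background. Cells received the empty vector MSCV-puro (control), MSCV-IRF8FLAG or MSCV-KLF4FLAG by spinoculation with 4 µg/ml polybrene. The culture medium held granulocyte-macrophage colony stimulating factor at 5.0 ng/ml. Cells met 2 µg/ml puromycin from 48 hr onwards and were collected on day 4. Each group has 2 Cy3 arrays, numbered 1 and 2. The design text names 2 independent experiments, and the numbers are taken here as experiment 1 and 2. All of the cells are of a single line under drug selection, which limits how far they stand for monocytes of an animal.

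Before a cell copies its DNA, the origin recognition complex, Cdc6 and Cdt1 load the Mcm helicase onto origins, a step called licensing. Cdc45 and the GINS complex then switch the helicase on, polymerases and the Pcna clamp synthesise the new strands, and enzymes such as ribonucleotide reductase supply the nucleotides. After replication, Cdk1 with its cyclins, Plk1 and the Aurora kinases drive the cell into mitosis, the spindle checkpoint holds the cell until chromosomes are attached, and Cdc20 starts their separation. E2F factors control many replication genes, and the MuvB core with B-Myb or Foxm1 controls many mitosis genes through a promoter element called the CHR. Myeloid progenitors divide, whereas most monocytes divide little, and Irf8 and Klf4 are both transcription factors of the monocyte lineage.

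Promoters are shown first, because the words searched in them differed in frequency between replication and mitosis genes. The word counts use no array values, but all promoters printed except that of Cdk1 were picked by their fall on the arrays. RefSeq promoter windows (GRCm38.p6, 250 bases before to 50 after the annotated start) matched 39 of the 49 genes by symbol, in 40 windows, since Mcm7 has 2. The 4 E2F words searched were TTTCCCGC, TTTCGCGC, TTTGGCGC and TTTGCCGC, the CHR word was TTTGAA and the CCAAT box word was CCAAT, each on both strands, and E2F words can overlap each other. The search was added after the arrays had been analysed. The stretches printed are the 250 bases before the start, written 5′ to 3′ in the direction of transcription, of genes with a word inside that stretch. The first 3 are the replication genes with an E2F word there whose signal fell furthest in IRF8-labelled cells, and their capitals mark E2F words. The other Mcm7 window held no E2F word.
Mcm7 (chr5:138171884-138172133, minus strand): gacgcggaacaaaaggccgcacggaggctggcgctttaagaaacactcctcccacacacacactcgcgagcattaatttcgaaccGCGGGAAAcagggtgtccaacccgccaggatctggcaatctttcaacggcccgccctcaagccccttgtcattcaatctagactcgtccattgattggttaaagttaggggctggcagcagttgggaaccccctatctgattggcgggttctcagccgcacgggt
Cdc6 (chr11:98907901-98908150, plus strand): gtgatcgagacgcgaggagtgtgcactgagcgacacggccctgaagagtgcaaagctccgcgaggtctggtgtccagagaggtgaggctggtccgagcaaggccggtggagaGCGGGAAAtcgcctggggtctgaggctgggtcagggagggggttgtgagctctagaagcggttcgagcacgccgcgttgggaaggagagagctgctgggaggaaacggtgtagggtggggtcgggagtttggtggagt
Mcm5 (chr8:75109259-75109508, plus strand): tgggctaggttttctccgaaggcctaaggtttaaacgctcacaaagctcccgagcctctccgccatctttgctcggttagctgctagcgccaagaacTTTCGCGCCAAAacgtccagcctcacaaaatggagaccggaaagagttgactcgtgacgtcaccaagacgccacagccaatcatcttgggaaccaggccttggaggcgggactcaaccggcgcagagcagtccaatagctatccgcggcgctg

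The next 3 are the mitosis genes with a CHR word in that stretch whose signal fell furthest, and their capitals mark CHR words. The rule was set after matches had been seen, and it passes over Plk1, whose CHR word lies after the start.
Kif11 (chr19:37376132-37376381, plus strand): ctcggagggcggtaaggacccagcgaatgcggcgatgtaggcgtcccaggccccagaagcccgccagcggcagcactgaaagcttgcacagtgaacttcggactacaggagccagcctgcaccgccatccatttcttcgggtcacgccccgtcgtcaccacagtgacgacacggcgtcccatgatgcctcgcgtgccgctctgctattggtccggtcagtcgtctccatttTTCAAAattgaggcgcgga
Cdc20 (chr4:118437344-118437593, minus strand): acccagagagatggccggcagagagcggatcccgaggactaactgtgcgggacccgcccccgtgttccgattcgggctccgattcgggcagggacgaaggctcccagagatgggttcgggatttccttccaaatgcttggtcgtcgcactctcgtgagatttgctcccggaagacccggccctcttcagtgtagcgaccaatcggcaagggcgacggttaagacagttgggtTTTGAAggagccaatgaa
Top2a (chr11:99024190-99024439, minus strand): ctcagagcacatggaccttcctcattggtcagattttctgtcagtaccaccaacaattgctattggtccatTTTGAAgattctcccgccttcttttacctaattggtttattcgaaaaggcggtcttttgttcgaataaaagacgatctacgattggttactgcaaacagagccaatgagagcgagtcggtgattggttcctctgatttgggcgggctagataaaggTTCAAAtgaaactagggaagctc

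Cdk1, which encodes the kinase of mitotic entry, was the only member with both kinds of word, and both are in capitals.
Cdk1 (chr10:69352913-69353162, minus strand): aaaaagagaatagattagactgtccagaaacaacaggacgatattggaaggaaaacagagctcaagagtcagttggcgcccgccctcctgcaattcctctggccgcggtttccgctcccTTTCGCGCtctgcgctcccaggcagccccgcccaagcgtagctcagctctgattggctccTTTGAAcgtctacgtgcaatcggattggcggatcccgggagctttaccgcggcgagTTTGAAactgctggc

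An E2F word lay in 10 of 22 replication windows (45.5%) and in 1 of 16 mitosis windows (6.25%), against 2.26% of all 32851 windows and 3.66% of windows of genes tested. A CHR word lay in 11 of 16 mitosis windows (68.8%) and in 2 of 22 replication windows (9.09%), against 17.9% of all windows. CCAAT was found in 72.7% of replication and 87.5% of mitosis windows, against 37.4% of all. Shorter E2F words without the first T, 7 letters long, were also tried and were found in 68.2% of replication, 18.8% of mitosis and 9.57% of all windows. Both word lengths were looked at before the 8-letter set was kept, and both put replication above mitosis genes. Between 50 bases before and 50 after the start, a window also chosen after seeing the matches, the CHR word was in 62.5% of mitosis and 4.94% of all windows, and E2F words were in 31.8% of replication and 0.822% of all windows. A match describes letters and not a bound site, and a missing match does not show that a site is absent.

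**Figure D1:**
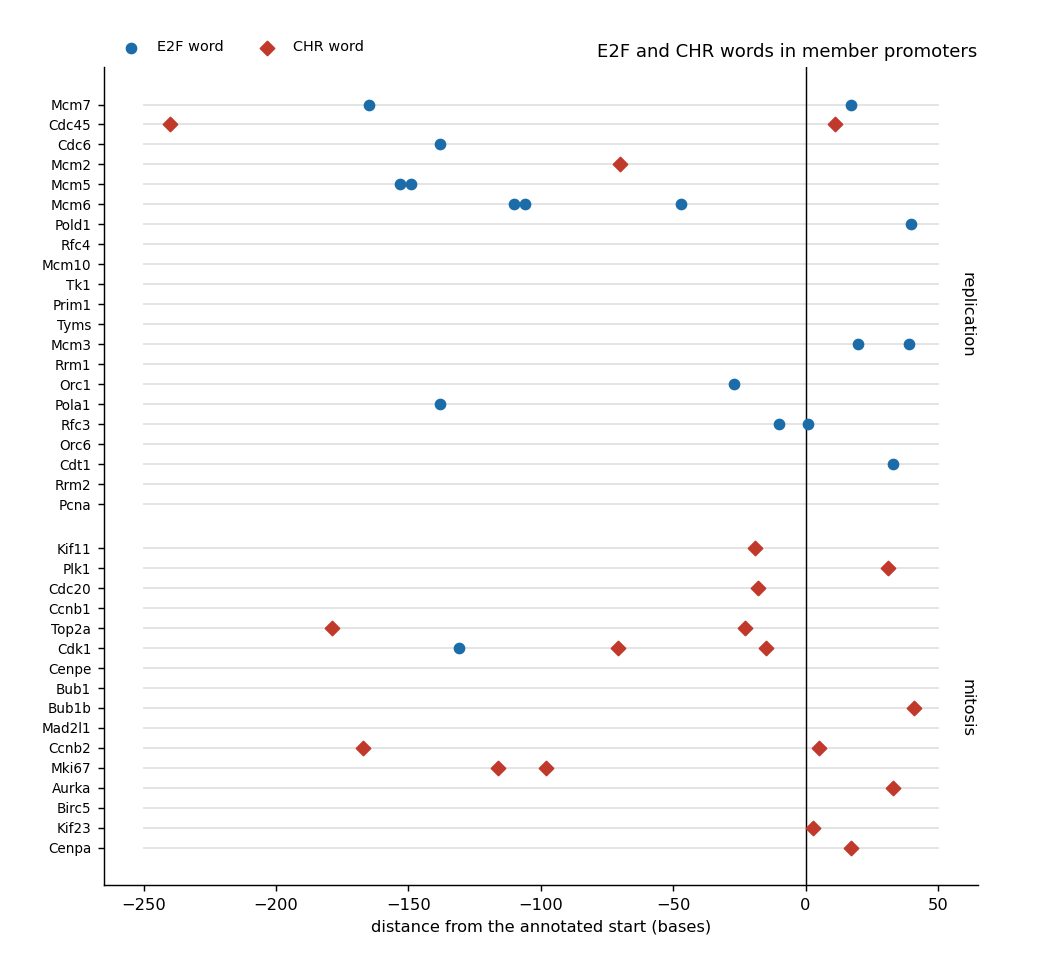
Distance from the annotated start, in bases, of E2F words (blue circles) and CHR words (red diamonds) in the promoter windows of replication and mitosis genes, 1 line per gene. Kif11, Cdc20, Top2a and Cdk1 each have a CHR word between -23 and -15, and Cdk1 is the only mitosis gene with an E2F word.

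Per array, 47.1% to 56.8% of probes were well above background, saturation was absent and 75th percentiles of intensity lay between 436 and 974. Levels are given below as log2 of the processed signal minus that percentile of the same array. The Irf8 probe read 0.49 and 0.64 in control, 2.18 and 2.16 in KLF4-labelled and 2.94 and 3.05 in IRF8-labelled cells. The Klf4 probe read -1.62 and -1.28 in control, -1.56 and -1.33 in KLF4-labelled and 4.46 and 4.61 in IRF8-labelled cells, so it was not higher on arrays labelled KLF4, and the groups are called by their labels throughout. Probe positions on these RNAs were not used here, and neither probe is shown to read the transduced or the deleted sequence. Every direction given for the KLF4-labelled cells rests on the label. Csf1r, the receptor of monocytes and macrophages, lay above control by 45.6-fold in the IRF8-labelled and by 13.8-fold in the KLF4-labelled group. Mpo, the progenitor and granule gene, read between 8.0 and 9.39 on all 6 arrays, while Kit, another progenitor marker, was not well above background on any.

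In IRF8-labelled cells the whole set fell. All 47 tested members were called lower than control by limma (adjusted p under 0.05) and 0 were called higher, also at an unadjusted p under 0.05, where 35.7% of all genes tested were called lower and 25.8% higher. The arrays of the groups overlapped for none of the 47, and 46.1% of all genes were lower without overlap. The members' median log2 change was -1.30, a 2.45-fold difference. Of the 47, 38 were called lower by at least 2-fold, against 14.9% of all genes tested. The median over all genes tested was -0.13. In each experiment by itself the members' median was -1.30 and -1.29. The smallest fall was that of E2f1 at -0.44 and the largest that of Gins1 at -1.92. Arrays measure RNA of a whole culture, so fewer dividing cells and less of these RNAs in each cell cannot be told apart.

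In KLF4-labelled cells the shift was smaller. All 47 estimates lay below 0, with a median of -0.36 (1.29-fold), but the median of all genes was also below 0, at -0.16, and 46 of the 47 lay below that. The test called 17 members lower and 0 higher, where 8.85% of all genes were called lower and 10.4% higher. At an unadjusted p under 0.05, 32 members were lower, as were 23.5% of all genes. The arrays of the groups did not overlap for 40 of the 47, and for 45.1% of all genes in that direction. The replicate number pairs the arrays, and with it as a block the members called lower rose to 43 and all genes called lower to 34.4%. The members not called with the block were E2f1, Cdk1, Aurka and Kif23. Calls given below without mention of the block are from the fit without it. The call also depended on the scaling between arrays. With arrays scaled on their medians, 0 members passed and 6 were lower at an unadjusted p under 0.05, as were 7.28% of all genes. With scaling on spike-in spots 0 passed (0 unadjusted), where 2.41% of all genes were lower unadjusted. Over all genes, called genes were lower in 1172 of 2544 cases on the 75th percentile scale and in 199 of 1458 on the median scale. The members' median minus that of all genes, which a constant added to an array cannot change, was -0.20, against -1.17 for IRF8-labelled cells. It was -0.19 with quantile normalization and -0.13 with no filter on dim probes. Without any single array the count was 0 to 2. Both comparisons share the control arrays.

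IRF8-labelled cells were also below KLF4-labelled cells. The test called 43 of 47 members lower and 0 higher (0 also unadjusted), where 26.8% of all genes were called lower and 23.7% higher. The members' median was -0.91 (1.88-fold), and 17 members were called at least 2-fold lower, against 9.36% of all genes. With the replicate block all 47 were called lower, and with spike-in scaling 27 were, where 12.0% of all genes were called lower. Called genes were lower in 3554 of 6695 cases over all genes here and in 3851 of 5923 with median scaling. No member's arrays overlapped, against 39.4% of all genes that were lower without overlap. The 4 members not called were Gins2, Pcna, E2f1 and Cenpa. The order control above KLF4-labelled above IRF8-labelled held in both experiments for 47 of 47 members and for 35.6% of all genes tested. Of the members, 16 were called lower in all 3 comparisons and 27 were called lower against KLF4-labelled cells but not in KLF4-labelled cells against control.

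**Figure D2:**
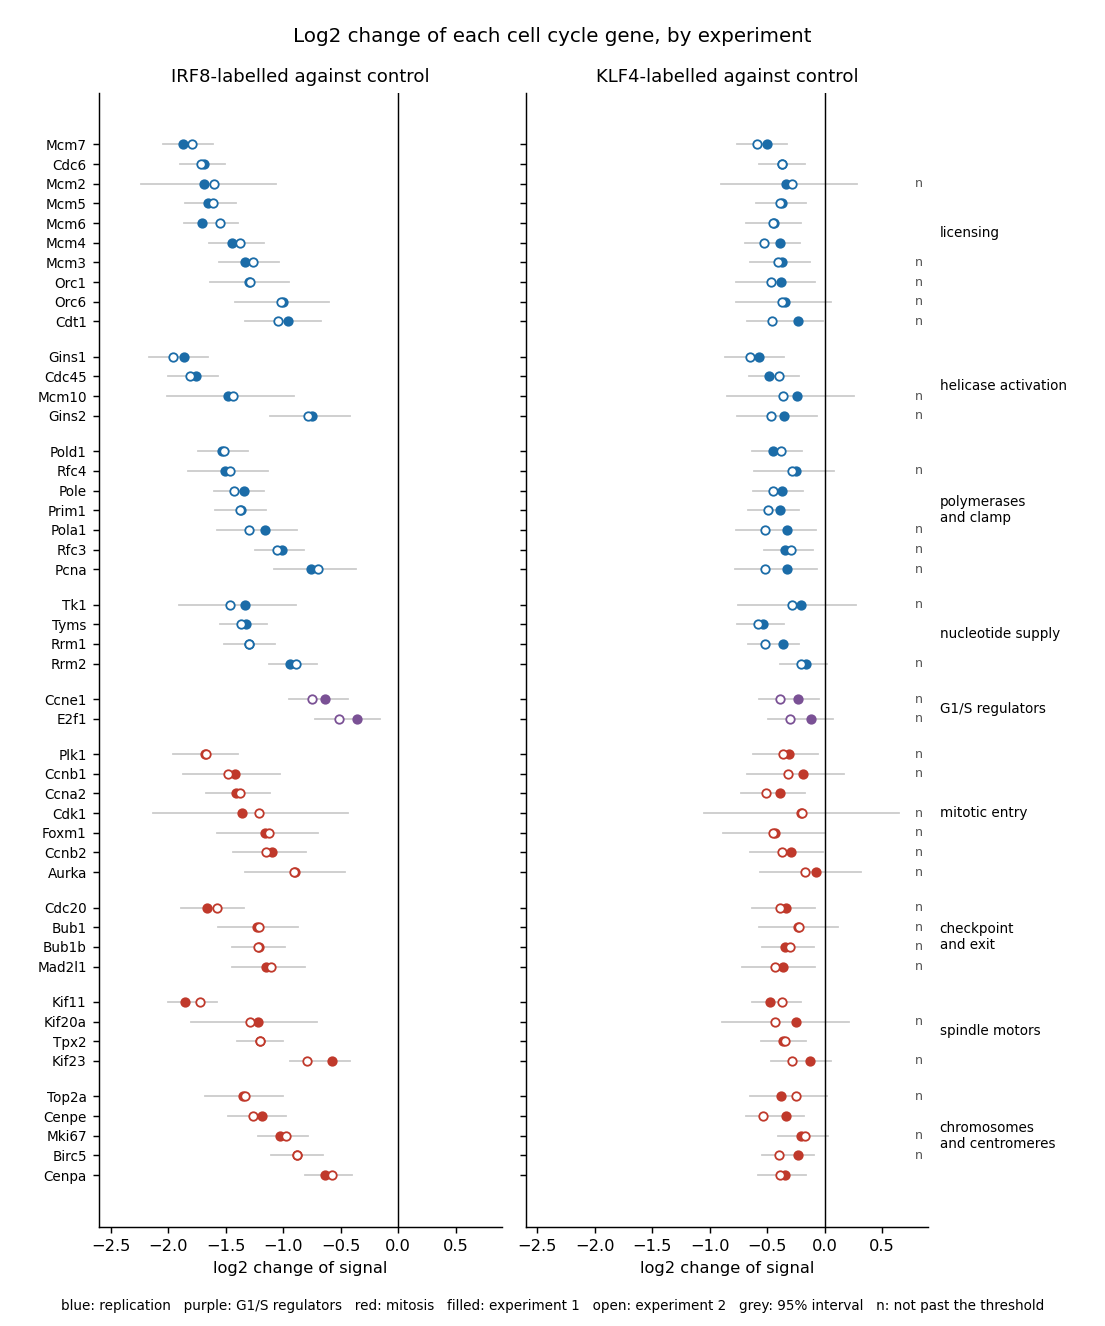
Log2 change against control of each tested gene, in IRF8-labelled cells (left) and KLF4-labelled cells (right), with filled points for experiment 1, open points for experiment 2 and grey lines for the 95% interval of the limma fit. Every point lies below 0, between -1.92 and -0.44 in IRF8-labelled cells as a mean of both experiments, and the letter n marks the 30 genes that did not pass the threshold in KLF4-labelled cells.

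All 10 licensing genes fell in IRF8-labelled cells, with a median of -1.52 (2.86-fold). Mcm7, a subunit of the replicative helicase, read 6.32 and 6.33 in control, 5.81 and 5.74 in KLF4-labelled and 4.45 and 4.53 in IRF8-labelled cells. The arrays of each group agreed closely and the 3 groups did not overlap. Mcm7 was 3.56-fold (log2 -1.83 ± 0.08 (SE, limma adjusted p = 8.30e-05)) lower in IRF8-labelled and 1.46-fold (log2 -0.55 ± 0.08 (SE, limma adjusted p = 0.0155)) lower in KLF4-labelled cells, and it was the single member still called in KLF4-labelled cells after normexp background correction. Cdc6, the loader of that helicase, read 1.11 and 1.12 in control, 0.73 and 0.75 in KLF4-labelled and -0.59 and -0.59 in IRF8-labelled cells. Its groups were again separate, and it fell 3.26-fold (log2 -1.70 ± 0.08 (SE, limma adjusted p = 7.84e-05)) in IRF8-labelled and 1.29-fold (log2 -0.37 ± 0.08 (SE, limma adjusted p = 0.0335)) in KLF4-labelled cells. Mcm2, another helicase subunit, read 3.51 and 3.85 in control, 3.17 and 3.57 in KLF4-labelled and 1.81 and 2.25 in IRF8-labelled cells. Here KLF4-labelled and control arrays overlapped, because replicate 1 lay below replicate 2 in every group, and the IRF8-labelled arrays were lower than all others. Mcm2 fell 3.14-fold (log2 -1.65 ± 0.23 (SE, limma adjusted p = 0.00244)) in IRF8-labelled cells, and its KLF4-labelled value was -0.31 ± 0.23 (SE, limma adjusted p = 0.364), with adjusted p = 0.0168 under the replicate block.

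Mcm3, Mcm4, Mcm5 and Mcm6, the other subunits of the helicase ring, fell by 1.30 to 1.64 on the log2 scale in IRF8-labelled cells, and Mcm4, Mcm5 and Mcm6 were also called lower in KLF4-labelled cells, at -0.46, -0.38 and -0.45. Orc1 and Orc6, subunits of the origin recognition complex, and Cdt1, the partner of Cdc6 in loading, fell by 1.30, 1.01 and 1.00 in IRF8-labelled cells. Their KLF4-labelled values were -0.43, -0.36 and -0.35 and did not pass the test. In all, 5 of 10 licensing genes were called lower in KLF4-labelled cells and 10 of 10 in IRF8-labelled against KLF4-labelled cells.

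Of the 4 genes that switch the helicase on, Gins1 had the largest fall of any member. Gins1, a subunit of GINS, read 3.35 and 3.51 in control, 2.78 and 2.86 in KLF4-labelled and 1.48 and 1.55 in IRF8-labelled cells. The 3 groups were separate and the IRF8-labelled arrays lay lowest. The fall was 3.77-fold (log2 -1.92 ± 0.10 (SE, limma adjusted p = 0.000113)) in IRF8-labelled and 1.53-fold (log2 -0.61 ± 0.10 (SE, limma adjusted p = 0.0179)) in KLF4-labelled cells. Cdc45, which joins Mcm and GINS in the active helicase, read 1.80 and 1.76 in control, 1.31 and 1.36 in KLF4-labelled and 0.04 and -0.05 in IRF8-labelled cells. It too had 3 separate groups, and fell 3.45-fold (log2 -1.79 ± 0.08 (SE, limma adjusted p = 8.48e-05)) and 1.36-fold (log2 -0.44 ± 0.08 (SE, limma adjusted p = 0.0266)). Mcm10, an activation factor, read 4.13 and 4.52 in control, 3.89 and 4.16 in KLF4-labelled and 2.65 and 3.08 in IRF8-labelled cells. KLF4-labelled and control arrays overlapped and IRF8-labelled arrays were lower, with a fall of 2.75-fold (log2 -1.46 ± 0.22 (SE, limma adjusted p = 0.00299)), whereas the KLF4-labelled value was -0.30 ± 0.22 (SE, limma adjusted p = 0.350). Gins2, a second subunit of GINS, fell by 0.77 in IRF8-labelled cells, and its difference between IRF8-labelled and KLF4-labelled cells was -0.35 ± 0.14 (SE, limma adjusted p = 0.0851), with a 95% interval of -0.70 to -0.00.

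The polymerase and clamp genes fell in 7 of 7 cases in IRF8-labelled cells, with a median of -1.37. Pold1, the catalytic subunit of polymerase delta, read 4.48 and 4.51 in control, 4.03 and 4.13 in KLF4-labelled and 2.95 and 3.0 in IRF8-labelled cells. Rfc4, a subunit of the clamp loader, read 4.45 and 4.65 in control, 4.21 and 4.37 in KLF4-labelled and 2.95 and 3.19 in IRF8-labelled cells. Pole, the catalytic subunit of polymerase epsilon, read 3.86 and 3.97 in control, 3.49 and 3.52 in KLF4-labelled and 2.52 and 2.54 in IRF8-labelled cells. For each of them the 6 arrays fell into 3 groups without overlap, control highest and IRF8-labelled lowest. Pold1 fell 2.88-fold (log2 -1.53 ± 0.09 (SE, limma adjusted p = 0.000137)), Rfc4 2.80-fold (log2 -1.48 ± 0.14 (SE, limma adjusted p = 0.000595)) and Pole 2.61-fold (log2 -1.38 ± 0.08 (SE, limma adjusted p = 0.000174)) in IRF8-labelled cells. In KLF4-labelled cells Pold1 (-0.41 ± 0.09 (SE, limma adjusted p = 0.0331)) and Pole (-0.41 ± 0.08 (SE, limma adjusted p = 0.0331)) were called and Rfc4 (-0.26 ± 0.14 (SE, limma adjusted p = 0.218)) was not. A second Pole probe was below background on every array, and with the mean of both probes Pole was not called in any of the 3 comparisons, at adjusted p = 0.416 in IRF8-labelled cells against control.

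Prim1, the primase subunit, fell by 1.37 in IRF8-labelled and by 0.44 in KLF4-labelled cells, both called. Pola1, the catalytic subunit of polymerase alpha, and Rfc3, of the clamp loader, fell by 1.23 and 1.03 in IRF8-labelled cells. Pcna, the sliding clamp, moved less: it fell by 0.73 in IRF8-labelled cells, its KLF4-labelled value was -0.42 ± 0.14 (SE, limma adjusted p = 0.0926), and the difference between IRF8-labelled and KLF4-labelled cells did not pass (log2 -0.30 ± 0.14 (SE, limma adjusted p = 0.132), 95% interval -0.66 to 0.06). With spike-in scaling the fall of Pcna in IRF8-labelled cells had adjusted p = 0.0826.

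All 4 nucleotide supply genes fell in IRF8-labelled cells. Tk1, thymidine kinase, read 4.01 and 4.41 in control, 3.80 and 4.13 in KLF4-labelled and 2.68 and 2.94 in IRF8-labelled cells. KLF4-labelled and control arrays of Tk1 overlapped, and the IRF8-labelled arrays were the lowest, 2.64-fold (log2 -1.40 ± 0.20 (SE, limma adjusted p = 0.00268)) below control. The KLF4-labelled value of Tk1 was -0.24 ± 0.20 (SE, limma adjusted p = 0.408). Tyms, thymidylate synthase, read -0.57 and -0.51 in control, -1.10 and -1.09 in KLF4-labelled and -1.90 and -1.87 in IRF8-labelled cells, and Rrm1, the large subunit of ribonucleotide reductase, read 5.36 and 5.39 in control, 4.99 and 4.87 in KLF4-labelled and 4.06 and 4.10 in IRF8-labelled cells. Both had 3 separate groups. Tyms fell 2.55-fold (log2 -1.35 ± 0.08 (SE, limma adjusted p = 0.000158)) in IRF8-labelled and 1.47-fold (log2 -0.56 ± 0.08 (SE, limma adjusted p = 0.0116)) in KLF4-labelled cells, and had the lowest adjusted p of any member in the latter. Rrm1 fell 2.46-fold (log2 -1.30 ± 0.09 (SE, limma adjusted p = 0.000223)) and 1.36-fold (log2 -0.44 ± 0.09 (SE, limma adjusted p = 0.0293)). Rrm2, the small subunit of the same enzyme, fell by 0.92 in IRF8-labelled cells, with -0.18 ± 0.08 (SE, limma adjusted p = 0.162) in KLF4-labelled cells.

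The G1/S regulators had the smallest class median in IRF8-labelled cells, at -0.57. Ccne1, cyclin E1, read 4.90 and 5.09 in control, 4.67 and 4.70 in KLF4-labelled and 4.27 and 4.35 in IRF8-labelled cells. E2f1, an activating E2F factor, read 2.61 and 2.84 in control, 2.49 and 2.54 in KLF4-labelled and 2.24 and 2.32 in IRF8-labelled cells. For both genes the groups did not overlap, but the steps between them were small. Ccne1 fell 1.62-fold (log2 -0.69 ± 0.10 (SE, limma adjusted p = 0.00286)) and E2f1 1.36-fold (log2 -0.44 ± 0.11 (SE, limma adjusted p = 0.0197)) in IRF8-labelled cells, and with spike-in scaling neither passed, at adjusted p = 0.0862 and 0.244. E2f1 also lost its call with no filter on dim probes (adjusted p = 0.0632), without control replicate 2 (0.0792), without IRF8 replicate 1 (0.109) and without IRF8 replicate 2 (0.0619). In KLF4-labelled cells neither was called, at -0.31 ± 0.10 (SE, limma adjusted p = 0.0917) and -0.21 ± 0.11 (SE, limma adjusted p = 0.227). The E2F word search found no match in the Ccne1 or E2f1 window. The Ccne2 probe read between -7.74 and -6.67, below background throughout, so nothing is given for it.

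All 7 genes of mitotic entry fell in IRF8-labelled cells, with a median of -1.28. Plk1, a kinase that drives entry and spindle assembly, read 5.50 and 5.65 in control, 5.19 and 5.29 in KLF4-labelled and 3.81 and 3.98 in IRF8-labelled cells. Ccnb1, cyclin B1, read 4.69 and 5.02 in control, 4.51 and 4.70 in KLF4-labelled and 3.28 and 3.54 in IRF8-labelled cells. Ccna2, cyclin A2, which acts in S phase and in mitotic entry, read 4.56 and 4.71 in control, 4.16 and 4.20 in KLF4-labelled and 3.15 and 3.33 in IRF8-labelled cells. The IRF8-labelled arrays of these 3 genes were well below the rest, whereas the KLF4-labelled arrays lay close under control and for Ccnb1 overlapped it. The falls in IRF8-labelled cells were 3.20-fold (log2 -1.68 ± 0.11 (SE, limma adjusted p = 0.000213)) for Plk1, 2.73-fold (log2 -1.45 ± 0.16 (SE, limma adjusted p = 0.00118)) for Ccnb1 and 2.63-fold (log2 -1.39 ± 0.11 (SE, limma adjusted p = 0.000354)) for Ccna2. Ccna2 was the only gene of this class called in KLF4-labelled cells (-0.45 ± 0.11 (SE, limma adjusted p = 0.0480)). Plk1 (-0.34 ± 0.11 (SE, limma adjusted p = 0.0921)) and Ccnb1 (-0.25 ± 0.16 (SE, limma adjusted p = 0.307)) were not, but were with the replicate block, at adjusted p = 0.0139 and 0.0318.

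Cdk1, the partner of these cyclins, read 2.21 and 2.74 in control, 2.00 and 2.54 in KLF4-labelled and 0.85 and 1.53 in IRF8-labelled cells, and replicate 1 was lower than replicate 2 in each group. It fell 2.44-fold (log2 -1.28 ± 0.33 (SE, limma adjusted p = 0.0213)) in IRF8-labelled cells and had the widest SE of the members. That call was lost with no filter on dim probes (adjusted p = 0.0566), without control replicate 2 (0.0880) and without IRF8 replicate 1 (0.0916). Foxm1, a transcription factor of mitosis genes, fell by 1.14 in IRF8-labelled cells, Ccnb2, cyclin B2, by 1.12 and Aurka, a kinase of the spindle poles, by 0.90. None of these 4 was called in KLF4-labelled cells, and with the block Foxm1 and Ccnb2 were called while Cdk1 (adjusted p = 0.0668) and Aurka (0.120) were not.

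The 4 checkpoint and exit genes fell in IRF8-labelled cells, and limma called 0 of them in KLF4-labelled cells. At an unadjusted p under 0.05, 3 of the 4 were lower there, as were 23.5% of all genes tested. Cdc20, the activator of the complex that ends the checkpoint, read 6.07 and 6.18 in control, 5.73 and 5.79 in KLF4-labelled and 4.40 and 4.60 in IRF8-labelled cells. Bub1, a kinase of the checkpoint, read 2.36 and 2.56 in control, 2.13 and 2.33 in KLF4-labelled and 1.13 and 1.34 in IRF8-labelled cells. Bub1b, which encodes its inhibitory partner BubR1, read 2.49 and 2.41 in control, 2.15 and 2.10 in KLF4-labelled and 1.28 and 1.18 in IRF8-labelled cells. The groups of all 3 were separate, with KLF4-labelled arrays just under control. The IRF8-labelled falls were 3.07-fold (log2 -1.62 ± 0.11 (SE, limma adjusted p = 0.000216)), 2.33-fold (log2 -1.22 ± 0.13 (SE, limma adjusted p = 0.00109)) and 2.32-fold (log2 -1.22 ± 0.09 (SE, limma adjusted p = 0.000288)). The KLF4-labelled values were -0.36 ± 0.11 (SE, limma adjusted p = 0.0746), -0.23 ± 0.13 (SE, limma adjusted p = 0.268) and -0.32 ± 0.09 (SE, limma adjusted p = 0.0626), and all 3 passed with the replicate block. Mad2l1, which blocks Cdc20 while the checkpoint is on, fell by 1.13 in IRF8-labelled cells.

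Among the spindle motors and their targeting factor, Kif11 had the largest fall of the mitosis genes. Kif11, which pushes the spindle poles apart, read 1.29 and 1.23 in control, 0.82 and 0.86 in KLF4-labelled and -0.57 and -0.50 in IRF8-labelled cells. Its 3 groups were separate, and it fell 3.47-fold (log2 -1.79 ± 0.08 (SE, limma adjusted p = 8.32e-05)) in IRF8-labelled and 1.34-fold (log2 -0.42 ± 0.08 (SE, limma adjusted p = 0.0297)) in KLF4-labelled cells. Kif20a, a motor of cytokinesis, read 4.04 and 3.76 in control, 3.78 and 3.33 in KLF4-labelled and 2.81 and 2.47 in IRF8-labelled cells. Its KLF4-labelled arrays overlapped control and the value was -0.34 ± 0.21 (SE, limma adjusted p = 0.294), while the IRF8-labelled arrays lay below both, a fall of 2.39-fold (log2 -1.25 ± 0.21 (SE, limma adjusted p = 0.00503)). Tpx2, which targets Aurora A to the spindle, read 3.65 and 3.64 in control, 3.28 and 3.29 in KLF4-labelled and 2.45 and 2.43 in IRF8-labelled cells. The replicates of Tpx2 were nearly equal and the groups separate, with falls of 2.31-fold (log2 -1.21 ± 0.08 (SE, limma adjusted p = 0.000199)) and 1.28-fold (log2 -0.36 ± 0.08 (SE, limma adjusted p = 0.0368)). Kif23, another motor of cytokinesis, fell by 0.68 in IRF8-labelled cells, a call lost with spike-in scaling (adjusted p = 0.0883).

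Of the 6 chromosome and centromere genes, 5 were tested and all 5 fell in IRF8-labelled cells. Top2a, the topoisomerase that untangles sister chromatids, read 3.87 and 4.01 in control, 3.50 and 3.76 in KLF4-labelled and 2.52 and 2.68 in IRF8-labelled cells. Cenpe, a kinetochore motor, read 5.13 and 5.30 in control, 4.79 and 4.76 in KLF4-labelled and 3.94 and 4.03 in IRF8-labelled cells. Mki67, which encodes the proliferation marker Ki-67, read 5.69 and 5.72 in control, 5.49 and 5.55 in KLF4-labelled and 4.67 and 4.75 in IRF8-labelled cells. No groups overlapped, although the KLF4-labelled Mki67 arrays were only just below control. In IRF8-labelled cells the falls were 2.54-fold (log2 -1.34 ± 0.13 (SE, limma adjusted p = 0.000744)), 2.34-fold (log2 -1.23 ± 0.10 (SE, limma adjusted p = 0.000389)) and 2.00-fold (log2 -1.0 ± 0.08 (SE, limma adjusted p = 0.000450)). In KLF4-labelled cells Cenpe was called (-0.44 ± 0.10 (SE, limma adjusted p = 0.0416)). Top2a (-0.32 ± 0.13 (SE, limma adjusted p = 0.151)) and Mki67 (-0.19 ± 0.08 (SE, limma adjusted p = 0.170)) were not, but were with the replicate block, at adjusted p = 0.0204 and 0.0379.

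Cenpa, the histone variant of centromeres, stood apart from that class. It read 4.38 and 4.36 in control, 4.03 and 3.96 in KLF4-labelled and 3.74 and 3.78 in IRF8-labelled cells. It fell 1.52-fold (log2 -0.61 ± 0.08 (SE, limma adjusted p = 0.00208)) in IRF8-labelled and 1.29-fold (log2 -0.37 ± 0.08 (SE, limma adjusted p = 0.0376)) in KLF4-labelled cells, and the difference between them did not pass (-0.24 ± 0.08 (SE, limma adjusted p = 0.0604)). In that fit it was the only member called lower in both groups against control and not between them. With the replicate block the difference between them was called too (limma adjusted p = 0.0216). With spike-in scaling its IRF8-labelled fall had adjusted p = 0.115. Birc5, survivin, fell by 0.88 in IRF8-labelled cells. The Aurkb probe read between -7.24 and -6.18, below background on all arrays.

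**Figure D3:**
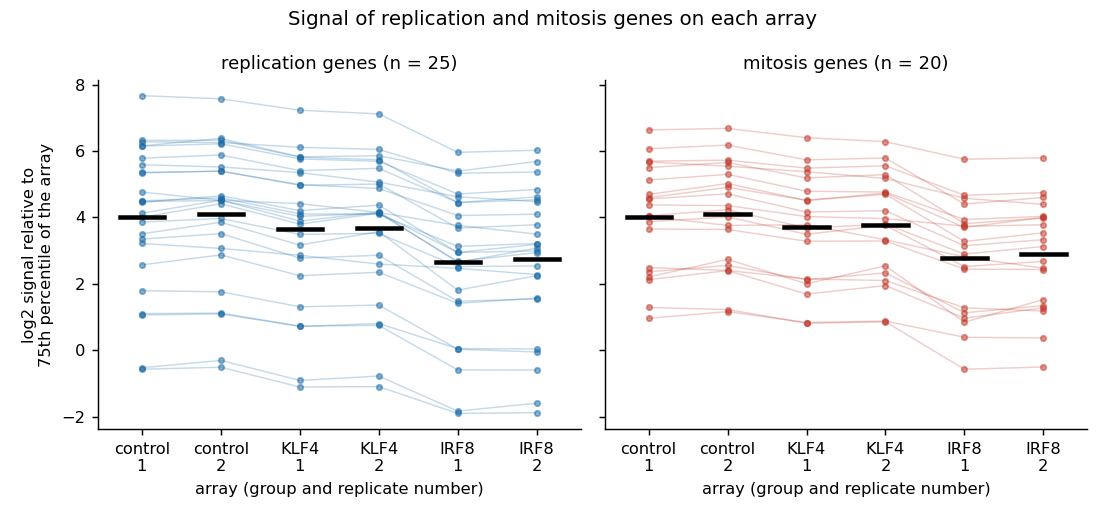
Log2 signal of each tested replication gene (left, n = 25) and mitosis gene (right, n = 20) on the 6 arrays, relative to the 75th percentile of the array, with 1 line per gene and black bars for the mean. The replication mean is 4.01 and 4.10 on control, 3.65 and 3.68 on KLF4-labelled and 2.65 and 2.74 on IRF8-labelled arrays, and the mitosis mean moves from 4.00 and 4.11 to 3.70 and 3.76 and to 2.79 and 2.91.

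Replication genes fell somewhat further than mitosis genes, and the distributions overlapped. In IRF8-labelled cells the median change was -1.38 over 25 replication genes (quartiles -1.63 and -1.23) and -1.22 over 20 mitosis genes (quartiles -1.36 and -1.09). The medians differed by 0.17, by 0.13 in experiment 1 and 0.17 in experiment 2, against a standard deviation between genes of 0.32 within the replication and 0.30 within the mitosis set. In KLF4-labelled cells the medians were -0.41 and -0.34, 0.08 apart (0.05 and 0.08 in the experiments), and 12 of 25 replication genes and 5 of 20 mitosis genes were called lower, where 8.85% of all genes were. These 12 and 5 calls became 0 and 0 with median or spike-in scaling, 8 and 1 with quantile normalization and 25 and 17 with the replicate block. Between IRF8-labelled and KLF4-labelled cells they were -0.95 and -0.87, 0.08 apart (0.12 and 0.02). On each array the mean of the mitosis genes minus that of the replication genes was -0.01 and 0.01 in control, 0.06 and 0.09 in KLF4-labelled and 0.14 and 0.17 in IRF8-labelled cells, so the 3 groups did not overlap. No p is given for these differences, because genes are not replicates.

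**Figure D4:**
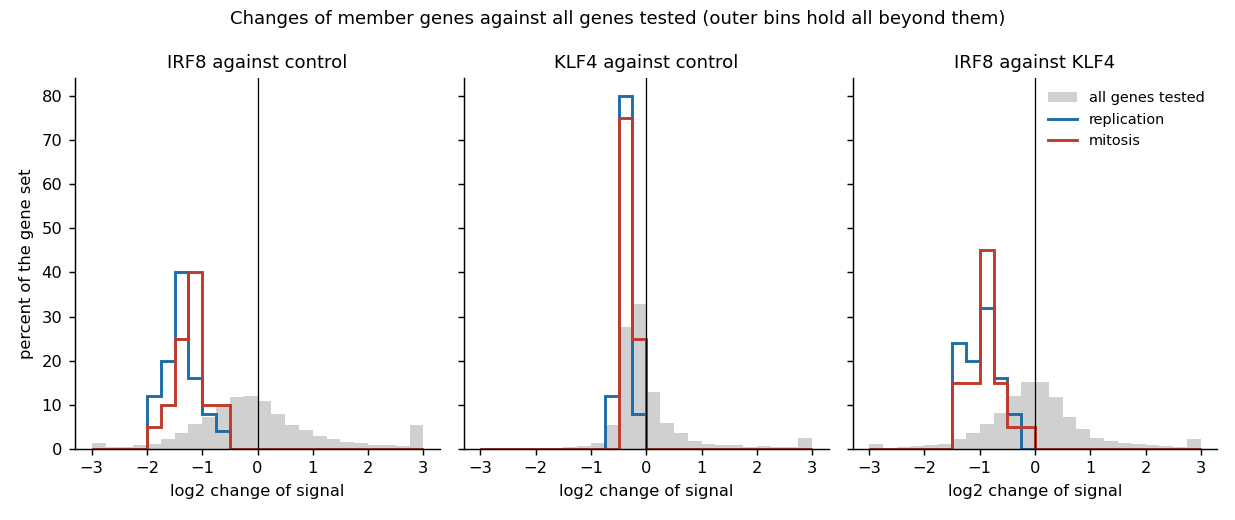
Percent of genes per bin of log2 change for all 13247 genes tested (grey), replication genes (blue) and mitosis genes (red) in the 3 comparisons. In IRF8-labelled against control cells both sets lie to the left of most genes, with medians of -1.38 and -1.22 against -0.13. In KLF4-labelled against control cells they lie closer to the median of all genes but almost all below it, at -0.41 and -0.34 against -0.16.

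Members with an E2F word and no CHR word, all 10 of them replication genes, had a median of -1.41 in IRF8-labelled cells, and the 12 with a CHR word and no E2F word had -1.28. Cdk1, with both, had -1.28, and the 16 with neither had -1.22, from -1.48 to -0.44. These 16 were 9 replication genes, 5 mitosis genes and 2 G1/S regulators, and the ranges of the groups overlapped. In KLF4-labelled cells the medians were -0.40 with an E2F word, -0.33 with a CHR word and -0.31 with neither.

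Other genes of the same pathways were read from lists that the members are not part of. In IRF8-labelled against control cells they did not keep the order of replication below mitosis genes. In IRF8-labelled cells 35.7% of all genes tested were called lower and 25.8% higher. Of 48 other replication and repair genes, 45 were called lower and 1 higher there, with a median of -1.06. Of 58 other mitosis genes tested, 54 were called lower and 1 higher, with a median of -1.24, so here the mitosis genes had the lower median. Exo1, a repair nuclease, fell 3.84-fold (log2 -1.94 ± 0.11 (SE, limma adjusted p = 0.000154)), Dut, which keeps uracil out of DNA, 3.60-fold (log2 -1.85 ± 0.17 (SE, limma adjusted p = 0.000658)) and Dnmt1, the maintenance DNA methyltransferase, 3.31-fold (log2 -1.73 ± 0.16 (SE, limma adjusted p = 0.000611)). Cks2, a subunit of Cdk1 complexes, fell 3.53-fold (log2 -1.82 ± 0.14 (SE, limma adjusted p = 0.000333)), Spc24, of the kinetochore, 3.48-fold (log2 -1.80 ± 0.11 (SE, limma adjusted p = 0.000160)) and Knl1, the kinetochore scaffold of the checkpoint, 3.18-fold (log2 -1.67 ± 0.17 (SE, limma adjusted p = 0.000841)). Dna2, a nuclease of Okazaki fragments and resection, rose 1.36-fold (log2 0.44 ± 0.09 (SE, limma adjusted p = 0.00924)), and Cdc25b, a phosphatase that activates Cdk1, rose 1.39-fold (log2 0.48 ± 0.14 (SE, limma adjusted p = 0.0334)), and neither rise passed with spike-in scaling. E2F words were in 24.5% of the windows of the other replication genes and 8.20% of the other mitosis genes, and the CHR word in 17.0% and 62.3%.

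In KLF4-labelled cells 11 of 48 other replication genes and 11 of 58 other mitosis genes were called lower by limma and 0 higher (0 also unadjusted). Their medians were -0.35 and -0.31, so in this comparison the replication genes had the lower median, as among the members. Of all genes tested, 8.85% were called lower and 10.4% higher. The lowest of the replication genes called were Wdhd1, a replisome factor (-0.56 ± 0.09 (SE, limma adjusted p = 0.0176)), Exo1 (-0.50 ± 0.11 (SE, limma adjusted p = 0.0408)) and Timeless, of the fork protection complex (-0.49 ± 0.08 (SE, limma adjusted p = 0.0209)). Among the mitosis genes Cks2 (-0.62 ± 0.14 (SE, limma adjusted p = 0.0401)), Sgo1, which protects centromeric cohesion (-0.59 ± 0.10 (SE, limma adjusted p = 0.0200)), and Cenpn, of the centromere (-0.52 ± 0.12 (SE, limma adjusted p = 0.0458)), were lowest of those called. With spike-in scaling none of these 6 passed. With the replicate block 97 of all 125 other genes tested were called lower and 3 higher, where 34.4% of all genes were called lower.

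The E2F, pocket protein and DREAM factor list was mixed, with 10 of 19 genes called lower and 3 higher in IRF8-labelled cells. Over all genes tested, 35.7% were called lower and 25.8% higher in that comparison. Cdc25a, a phosphatase that activates Cdk2, read 4.36 and 4.65 in control, 3.88 and 4.11 in KLF4-labelled and 2.45 and 2.78 in IRF8-labelled cells and fell 3.71-fold (log2 -1.89 ± 0.17 (SE, limma adjusted p = 0.000600)). Mybl2, which encodes B-Myb, fell 3.33-fold (log2 -1.73 ± 0.12 (SE, limma adjusted p = 0.000223)) and Tfdp1, the partner of E2F factors, 2.56-fold (log2 -1.35 ± 0.09 (SE, limma adjusted p = 0.000228)). Rb1, the retinoblastoma protein that restrains E2F factors, read 1.83 and 1.91 in control, 2.14 and 2.16 in KLF4-labelled and 3.18 and 3.25 in IRF8-labelled cells. Its IRF8-labelled arrays were the highest and its groups did not overlap. Rb1 rose 2.54-fold (log2 1.35 ± 0.08 (SE, limma adjusted p = 0.000185)) in IRF8-labelled cells, E2f2, an activating E2F, rose 2.03-fold (log2 1.02 ± 0.16 (SE, limma adjusted p = 0.00411)) and E2f5, a repressive E2F, 1.83-fold (log2 0.87 ± 0.23 (SE, limma adjusted p = 0.0234)). The E2f2 and E2f5 rises did not pass with spike-in scaling. In KLF4-labelled cells limma called 0 of the 19, with a median of -0.30. At an unadjusted p under 0.05, 6 were lower and 1 higher, where 23.5% of all genes tested were lower.

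Markers of cell state also differed between the groups, and members of a list did not all move one way. A sum over a list, in multiples of the 75th percentile of the array, follows its brightest probes, so the genes called by limma are given with it. Of 9 myeloid progenitor genes 8 were tested. In IRF8-labelled against control cells Myb, Elane, Prtn3, Ctsg and Gfi1 were called lower, Cd34 was called 19.1-fold higher, and Mpo and Flt3 were not called. Cd34 read -6.44 and -7.44 in control and was well above background on 2 of the 6 arrays, so its fold is taken over the floor. The sum of the 9 genes was 1706 to 2303 on control, 1247 to 1904 on KLF4-labelled and 612 to 758 on IRF8-labelled arrays. On each array 6 to 8 of the 9 were well above background, and Kit was below it everywhere. In KLF4-labelled cells Myb and Prtn3 were called lower. All 5 neutrophil genes tested were called lower in IRF8-labelled cells and 3 of them in KLF4-labelled cells. The sum over the 6 listed was 248 to 277, 135 to 160 and 7.36 to 7.82 in the same order of groups, with 5 well above background on every array and Mmp8 below it. Of the 7 monocyte and macrophage genes on the array, of 8 listed, Csf1r, Adgre1, Cd14, Msr1, Mrc1 and Cx3cr1 were called higher in both groups against control. The folds ran from 4.00 for Cd14 to 302 for Msr1 in IRF8-labelled cells. Msr1 (-5.75 and -6.12 in control) and Cx3cr1 (-5.42 and -5.30) were each well above background on 4 of the 6 arrays, so their folds are taken over the floor. Ly6c1, the brightest of the list, was called 2.68-fold lower in IRF8-labelled cells and was not called in KLF4-labelled cells. The sum of the 7 was 399 to 496, 393 to 536 and 365 to 373, with 5, 7 and 7 well above background, and without Ly6c1 it was 11.4 on both control arrays, 65.9 to 66.1 and 204 to 210.

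The 8 fibroblast genes, which would mark packaging cells, summed to 0.257 to 0.290, 2.16 to 2.26 and 0.198 to 0.274, with 2 to 4 of them well above background. The higher sum in KLF4-labelled cells came from Thy1, a surface protein that is also made outside fibroblasts, which was called 21.6-fold higher there. Without Thy1 the sums were 0.177 to 0.179, 0.132 to 0.227 and 0.149 to 0.212. Col1a1 and Col1a2 were not called in KLF4-labelled cells, and Pdgfra, Pdgfrb, Dcn and Lum were below background on every array. In IRF8-labelled against control cells Col1a2 was called 1.64-fold higher, Thy1 was called 1.70-fold lower and Col1a1 was not called. Col1a2 was dim, at -4.17 and -4.16 in control and -3.38 and -3.53 in IRF8-labelled cells. Of 5 lymphocyte genes, which summed to 4.87 to 5.58, 3.62 to 4.05 and 2.25 to 2.98, Lck was called lower in IRF8-labelled cells, while Cd3e read 1.94-fold higher and was not called. Of 4 erythroid genes, which summed to 2.08 to 2.30, 1.63 to 1.83 and 0.684 to 0.697, Epor and Klf1 were called lower in IRF8-labelled cells and Hba-a1 was called 3.28-fold higher. The part of these markers in the fall of the cell cycle genes was not tested.

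A second reading of the members came from the probes not used above. Of the 49 members, 38 had 1 probe and 11 had several, which left 15 unused probes. On all 6 arrays 13 of these were well above background, and all 13 were lower in each comparison, by -1.71 to -0.86 in IRF8-labelled and -0.76 to -0.17 in KLF4-labelled cells against control. The other 2, of Pole and Cdk1, were below background on every array.

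**Figure D5:**
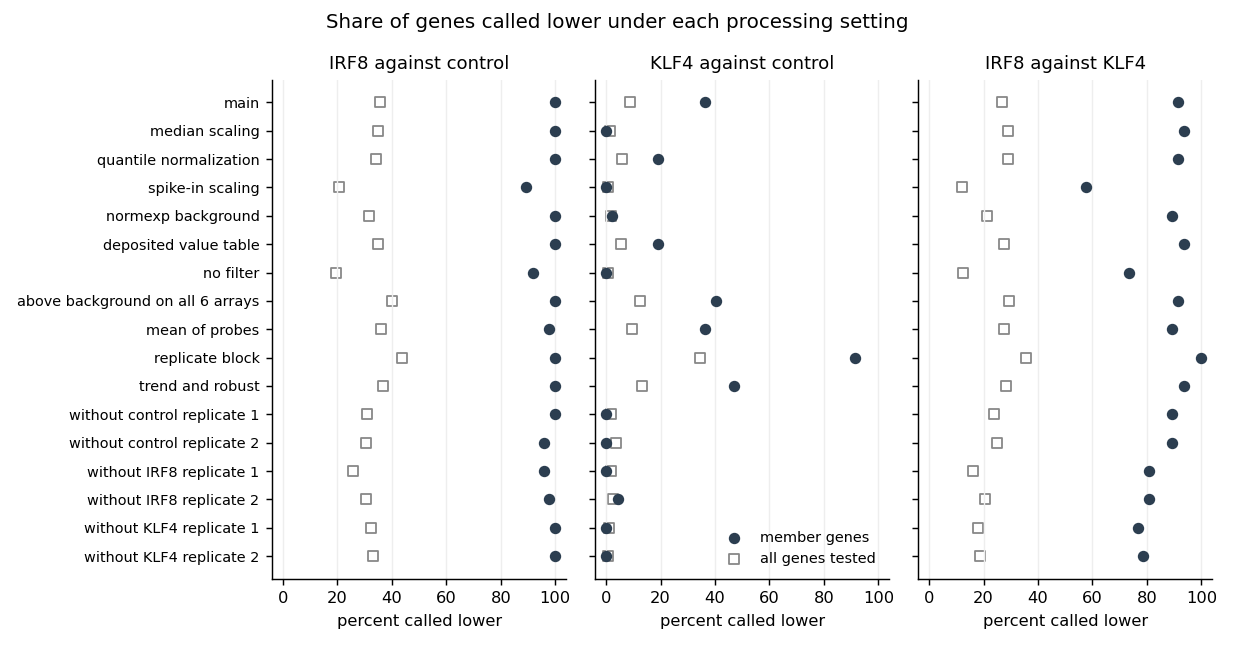
Percent of member genes (filled circles) and of all genes tested (open squares) that were called lower under each processing setting, in the 3 comparisons. In IRF8-labelled against control cells the members stay at 42 to 47 genes called, in KLF4-labelled against control cells they run from 0 to 43, and in IRF8-labelled against KLF4-labelled cells from 27 to 47.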

How the data were processed

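The authors deposited intensity values, per the file headers: spot brightness of 6 single-colour arrays (62976 spots) taken with Agilent Feature Extraction 10.7.3.1 and corrected for background within each array. Control spots and 75 marked probes were left out, and 26728 of 28353 probes with a RefSeq-form accession were named through RefSeq (GRCm38.p6). Processed signals were taken to log2 and each array was set to its 75th percentile. Each gene was read by its brightest probe, and it was tested where 1 or more groups had that probe well above background on both arrays. All 6 arrays entered a single fit in limma 3.58.1 (R 4.3.3, 3 groups, 3 residual degrees of freedom, 2-sided), with Benjamini-Hochberg adjustment over 13247 genes. The number of arrays limits the precision.

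The replicate number splits the arrays the same way as slide and scan day, and is taken as the experiment. Deviations from group means of same-numbered arrays correlated at r = 0.282, 0.321 and 0.391, which pairs them, and every comparison was also fitted with the number as a block. Members, classes and lists were chosen with earlier results of these data known. Values on every array are given for the 3 members of each class with the largest change and for members that stood apart. Other genes are the 3 with the largest change of each list and comparison and those against their list. The fit was tested on simulated data. Alternatives were median, quantile and spike-in scaling (8 probes), normexp (offset 50) on the median signal, which stood in for the planned mean signal, the deposited table of values, which held the processed intensity times 1 factor per array (0.642 to 1.388), 178 to 221 probes per array being off by over 1%, other filters, the mean of probes, trend and robust settings, and leaving out each array.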

Additional observations from a re-analysis of the deposited data

How the results depend on the processing

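In IRF8-labelled against control cells the members called lower stayed at 42 to 47 in every setting run, lowest with spike-in scaling, and 0 were called higher in any setting of any comparison. The calls in KLF4-labelled against control cells depended on the setting. The count of 17 members became 0 with median scaling, spike-in scaling and no filter on dim probes, 1 with normexp, 9 with quantile normalization and 9 with the deposited value table, 43 with the replicate block and 0 to 2 when an array was left out. The 22 other cell cycle genes called lower there became 0 with median and spike-in scaling and no filter, 1 with normexp, 11 with quantile normalization, 8 with the deposited value table, 37 with trend and robust settings, 97 with the replicate block and 0 to 2 without an array, and the 0 called higher became 1 with quantile normalization and the deposited value table and 3 with the block. In IRF8-labelled against KLF4-labelled cells the 43 members became 27 with spike-in scaling, the 96 other genes called lower became 54, and the 4 called higher became 0 with spike-in scaling and 8 with the replicate block. The 5 other genes called higher in IRF8-labelled cells became 1 with spike-in scaling, 3 with no filter and 3 to 5 without an array. With leave-one-out the difference of medians, mitosis minus replication, ran from 0.13 to 0.19 in IRF8-labelled and from 0.054 to 0.078 in KLF4-labelled cells, and it was above 0 in all settings of the 3 comparisons. The replicate block took away no call of a named gene in the 3 comparisons, and it added that of Mpo in IRF8-labelled cells, at adjusted p = 0.00369. Spike-in scaling moved the median change of all genes from -0.13 to -0.25 in IRF8-labelled against control cells and from -0.01 to -0.17 against KLF4-labelled cells.

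Signs turned in KLF4-labelled against control cells alone, and among values that had not been called apart from Pole, for which a probe below background entered the mean. With the mean of probes Pole was 0.032. Without an array, Cdk1 ran from -0.47 to 0.069 and was above 0 without control replicate 2 or KLF4 replicate 1, and Aurka ran from -0.28 to 0.030, above 0 without control replicate 2. Klf4 was -0.047 with normexp and ran from -0.17 to 0.17 without an array. Mpo ran from -0.66 to 0.16 and E2f5 from -0.044 to 0.48. For the other changes the cause was not tested. Where an array was left out, its group had a single array, which is assumed to vary like the others.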
